A study of Mus musculus with 12 samples.

Results

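The B cell receptor signalling core was followed through 10 genes, which were chosen by name. They were Cd79a, Cd79b, Lyn, Blk, Syk, Btk, Blnk, Plcg2, Prkcb and Vav1. All 10 were found among the 50090 gene names on the array, at 14 of its 61307 probes. The cells were resting B (RB) cells, which had been enriched from the spleens of BALB/c mice by removing cells that carry CD43. The labels give female mice, 6 weeks old, and 4 h of culture for each of the 6 conditions. RB cells were left unstimulated or were stimulated with Pam2CSK4 (a lipopeptide that triggers TLR-2; 50 ng/ml in the methods), with anti-CD86, or with anti-CD86 and Pam2CSK4 together (TLR2.CD86). The remaining conditions were anti-CD40 and anti-CD40 with Pam2CSK4 (TLR2.CD40), for which the sources used here give no antibody dose. Each condition had 2 arrays. The labels do not say whether they came from separate animals, so that the p-values measure the spread between these arrays.

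The B cell receptor is a membrane immunoglobulin that is held with a CD79a and CD79b pair, whose tails carry the tyrosines that start the signal. Src family kinases such as Lyn and Blk phosphorylate these tails, and Syk docks on them. Syk, with the adaptor Blnk, then brings Btk and phospholipase C gamma 2 (Plcg2) together, and the lipid products open the calcium and protein kinase C beta (Prkcb) arms, while Vav1 passes the signal to Rac. Lyn also starts the inhibitory arm through phosphatase-bearing coreceptors. CD40, CD86 and TLR-2 are other routes into the B cell, which share some of these kinases. Levels of transcripts were measured here, not phosphorylation or protein.

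Some of the stretches of transcript that the values stand for are printed because a gene had more than 1 probe or because its call moved with the fit. Each is a probe of 60 bases, 5′ to 3′. The probes of Cd79a and Blk were the only ones of those genes. The Lyn probe is the dimmer of a pair, and for Vav1 the brighter probe precedes the dimmer one.
Cd79a: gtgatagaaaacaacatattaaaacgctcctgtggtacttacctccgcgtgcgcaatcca
Blk: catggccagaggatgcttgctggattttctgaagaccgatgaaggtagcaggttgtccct
Lyn, dimmer probe: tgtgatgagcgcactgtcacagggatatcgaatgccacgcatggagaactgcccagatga
Vav1, brighter probe: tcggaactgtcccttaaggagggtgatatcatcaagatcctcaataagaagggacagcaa
Vav1, dimmer probe: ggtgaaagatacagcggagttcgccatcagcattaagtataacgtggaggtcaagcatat

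RefSeq promoter windows (assembly GRCm38.p6) were at hand for 7 of the 10 genes, and the 250 bases before the start were read on both strands. The letters GGAAGT, a form of ETS factor sites, or their reverse complement lay in the windows of Cd79a, Blnk and Vav1. Of all 32851 windows, 19.7% held these letters. Shorter or other forms of ETS sites were not searched, so that a window without capitals may still hold them. The kappa B letters of NF-kB sites, searched likewise, were in none of the windows of these genes and in 4.11% of all windows. Capitals mark the match, which is a description and no site shown to be used. Both windows below are printed because Btk had the largest change of the 8 unsaturated genes and Cd79a is the receptor chain that could be measured.
Cd79a promoter, plus strand, chr7:24897247-24897496: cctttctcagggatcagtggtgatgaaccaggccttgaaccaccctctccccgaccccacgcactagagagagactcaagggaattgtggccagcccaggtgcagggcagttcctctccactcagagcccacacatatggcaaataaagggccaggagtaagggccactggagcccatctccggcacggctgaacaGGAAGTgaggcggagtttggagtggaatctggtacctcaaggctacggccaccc
Btk promoter, minus strand, chrX:134583141-134583390: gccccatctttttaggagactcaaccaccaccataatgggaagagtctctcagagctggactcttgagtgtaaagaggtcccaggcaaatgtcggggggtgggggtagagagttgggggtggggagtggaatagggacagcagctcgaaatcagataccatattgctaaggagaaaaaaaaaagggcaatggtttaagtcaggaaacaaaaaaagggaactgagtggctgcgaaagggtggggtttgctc

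The log2 signal of a probe is given relative to the 75th percentile of its array, so that 1 unit is a 2-fold difference. It compares arrays for 1 probe and does not rank genes. The arrays lay on 2 slides. Both unstimulated and both TLR2.CD40 arrays were on slide 1, whereas every other condition had 1 array on each slide. The share of spots well above background was 46.6% to 60.6%, and its top came from replicate 2 of anti-CD40, which also had the highest median intensity (51.2, against 17.3 to 33.5 on the other arrays). Between the slides, 18073 of the 31596 probes tested differed. Values of the 8 unsaturated genes of the core are therefore given without a slide term and, where it changes the call, with the slide as a block. All 10 genes of the list of B cell markers were well above background on all 12 arrays, with a summed signal of 383 to 531 times the 75th percentile. Myeloid markers (10 of 11 on the array, all 10 above background on every array; summed signal 274 to 385) were also detected, and so were T cell markers (10 or 11 of 11 in each condition; 30.8 to 46.0) and NK cell markers (6 or 7 of 7 in each condition; 11.6 to 20.0). The sums include saturated spots. In the myeloid sum, S100a9 was saturated on all 12 arrays (log2 signal 7.39 to 8.09) and S100a8 was at 6.26 or above. No other myeloid marker exceeded 3.51 (Cd14). In the B cell sum, Cd74 was saturated on all 12 arrays (7.39 to 8.03). As signals do not rank genes, the sums cannot be compared between lists as shares of cells. The paper describes the RB cells as highly enriched, with purity checked by flow cytometry.

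Cd79a and Cd79b form the signalling pair of the receptor. Cd79a had log2 signals of 0.91 and 1.01 in unstimulated RB cells. The values were 1.08 and 0.92 with Pam2CSK4, 0.78 and 0.55 with anti-CD86, and 1.51 and 1.24 with TLR2.CD86. They were 0.62 and 0.32 with anti-CD40 and 0.86 and 0.88 with TLR2.CD40. Both TLR2.CD86 arrays were above those of every other condition, and the arrays of anti-CD86, anti-CD40 and TLR2.CD40 were all below the unstimulated ones. The differences of anti-CD86 and TLR2.CD40 were -0.30 and -0.09, and neither passed the test with or without the block. Against unstimulated cells the difference was 0.41 (SE 0.15, adjusted p = 0.115, limma) for TLR2.CD86 and -0.49 (adjusted p = 0.0622) for anti-CD40. Under median normalization, in which each array is centred on its median, they were 0.12 (SE 0.47, adjusted p = 0.910) and -1.06 (adjusted p = 0.164). That centring used the median of all 61307 probes on the array. The medians over the 31596 probes tested, called all probes here and below, were then -0.32 and -0.58. In the fit with the slide as a block the Cd79a differences became 0.53 (SE 0.064, adjusted p = 0.00204) and -0.38 (adjusted p = 0.00500), both past the threshold. Leaving out replicate 2 of anti-CD40 from the blocked fit gave 0.52 (adjusted p = 0.00401) and -0.34 (adjusted p = 0.0192). The addition of Pam2CSK4 to anti-CD86 was followed by a Cd79a difference of 0.71 (adjusted p = 0.206; block adjusted p = 0.00387), which was 0.73 on slide 1 and 0.70 on slide 2.

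Cd79b was saturated on all 12 arrays, with intensities of 60319 to 65456, and so was Blnk, the adaptor that links Syk to Btk and Plcg2, with intensities of 60455 to 66233. Neither allows a fold change, and neither enters the counts below, which are over the 8 genes that were not saturated. Their scaled log2 signals were highest in TLR2.CD40, whose arrays had the lowest 75th percentiles (234 and 269 against 299 to 390 on the other arrays).

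**Figure D1:**
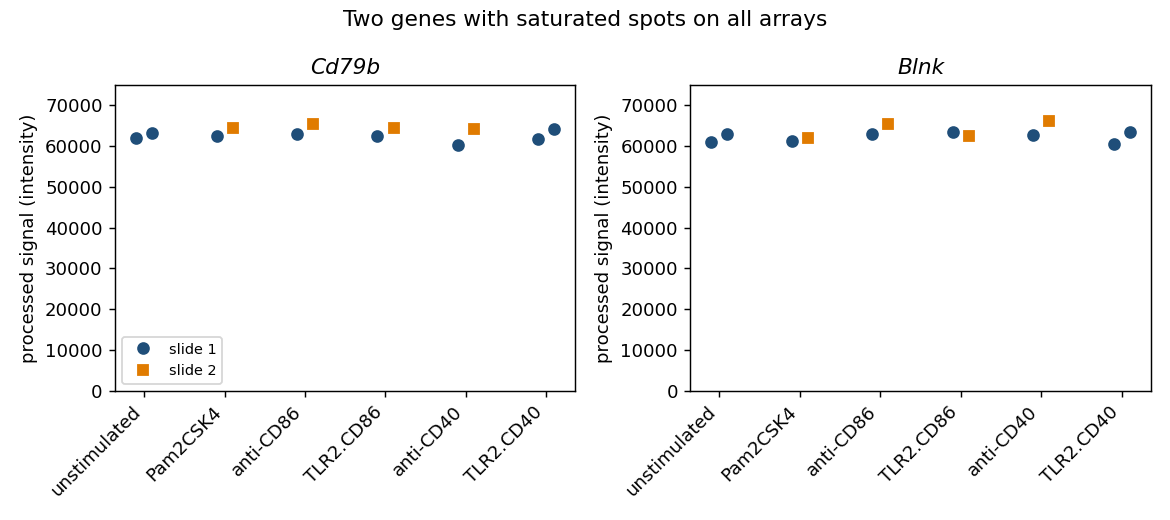
Processed signal (intensity, linear axis from 0) of Cd79b and Blnk on each of the 12 arrays by condition, with circles for slide 1 and squares for slide 2. All points lie between 60319 and 66233, in the range where the scanner saturates, so that no condition can be ranked.

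Lyn, the Src family kinase with both activating and inhibitory roles, fell after CD40 ligation. Its log2 signals were 5.06 and 5.10 in unstimulated cells and 4.39 and 4.18 with anti-CD40. With TLR2.CD40 they were 4.62 and 4.65. Neither condition overlapped the unstimulated arrays, nor each other. Lyn fell by 0.79 (SE 0.13, adjusted p = 0.00827, limma) with anti-CD40, to 0.577 times the unstimulated level, and fell by 0.44 (adjusted p = 0.0458) with TLR2.CD40. The first call was lost without either unstimulated array (-0.81 and -0.77, adjusted p = 0.0665 and 0.0758) and under median normalization, where the difference and its error were larger (-1.36, SE 0.46, adjusted p = 0.121). The latter was lost when any 1 of the unstimulated, Pam2CSK4, anti-CD86 or TLR2.CD40 arrays was left out (-0.46 to -0.42, adjusted p up to 0.200), and under median normalization (-0.55, adjusted p = 0.894). Under that scaling the medians over all probes were -0.58 with anti-CD40 and -0.10 with TLR2.CD40. In the blocked fit both Lyn differences were called (adjusted p = 0.00123 and 0.00460). With Pam2CSK4 (4.81 and 4.69), anti-CD86 (4.98 and 5.03) and TLR2.CD86 (4.87 and 4.62), all arrays were also below the unstimulated ones, by means of -0.33, -0.07 and -0.33, and none of these passed the test with or without the block. The dimmer Lyn probe printed above gave smaller differences of -0.45 with anti-CD40 (adjusted p = 0.210; block -0.24, adjusted p = 0.0268) and -0.25 with TLR2.CD40 (adjusted p = 0.512; block adjusted p = 0.0152). For anti-CD86 this probe was higher in the blocked fit (0.35, adjusted p = 0.0104), whereas the brighter one was at -0.005. For TLR2.CD86 it was also higher there (0.24, adjusted p = 0.0284), whereas the brighter one was at -0.27 (adjusted p = 0.0503). The probes of Lyn thus disagreed on both CD86 conditions.

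Blk, a Src family kinase largely restricted to the B lineage, had log2 signals of -0.39 and -0.51 in unstimulated cells. They were -0.05 and -0.11 with Pam2CSK4, -0.12 and -0.33 with anti-CD86, and 0.08 and -0.30 with TLR2.CD86. The arrays of these conditions lay above the unstimulated ones without overlap. With anti-CD40 (-0.37 and -0.65) and TLR2.CD40 (-0.49 and -0.39) the arrays overlapped them. No difference of Blk passed the test without the block. In the blocked fit Blk was higher with Pam2CSK4 (0.48, adjusted p = 0.0300), anti-CD86 (0.34, adjusted p = 0.0412) and TLR2.CD86 (0.45, adjusted p = 0.0129), and the call for anti-CD86 was lost there without replicate 2 of anti-CD40 (adjusted p = 0.0634). Under median normalization without the block these 3 differences were 0.17, 0.08 and 0.04. The medians over all probes were then -0.26, -0.19 and -0.32. The Blk signal was near the 75th percentile of the array.

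Syk, the kinase that docks on the phosphorylated CD79 tails, was higher in every stimulated condition than on both unstimulated arrays. The unstimulated values were 4.25 and 4.34. With Pam2CSK4 they were 4.79 and 4.69, with anti-CD86 5.01 and 4.86, and with TLR2.CD86 5.20 and 4.64. With anti-CD40 they were 4.81 and 4.58, and with TLR2.CD40 4.87 and 5.01. The TLR2.CD86 arrays had the widest gap of any condition for Syk (SD 0.40, n = 2). The increase passed the test for TLR2.CD40 (0.65, SE 0.19, adjusted p = 0.0470, limma), and this call was lost when any 1 of the unstimulated, Pam2CSK4, anti-CD86 or TLR2.CD40 arrays was left out (adjusted p up to 0.227), and under median normalization (0.54, adjusted p = 0.908). With the block, all 5 stimulations were called. The increases were then 0.57 (adjusted p = 0.0384) for Pam2CSK4, 0.77 (0.00718) for anti-CD86, 0.76 (0.00571) for TLR2.CD86, 0.53 (0.0174) for anti-CD40 and 0.65 (0.00511) for TLR2.CD40. Under median normalization the anti-CD40 value turned to -0.17 (adjusted p = 0.827), while the others kept their sign. That scaling moved the median of all probes for anti-CD40 to -0.58, so that Syk stayed above the median probe. The blocked values without replicate 2 of anti-CD40 had adjusted p of 0.0540 for Pam2CSK4 and 0.0559 for anti-CD40, and the calls of the other 3 conditions held. Only 1 Syk probe was on the array.

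Btk, the Tec family kinase that activates Plcg2, had the largest change of the 8 genes. Unstimulated RB cells had log2 signals of 4.60 and 4.66. The signals were 3.44 and 3.07 with anti-CD40 and 3.81 and 3.85 with TLR2.CD40. All 4 of these arrays were below every array of the other conditions. Btk decreased by 1.37 with anti-CD40 (SE 0.18, adjusted p = 0.00436, limma), which is 0.386 times the unstimulated level, and by 0.80 with TLR2.CD40 (adjusted p = 0.0189), which is 0.574 times that level. As RNA of whole cell preparations was measured, fewer cells with the transcript and less of it per cell cannot be told apart. The anti-CD40 difference held its call when any 1 of the 12 arrays was left out (-1.56 to -1.19, adjusted p up to 0.0466). For TLR2.CD40 the call was lost without either unstimulated or either TLR2.CD40 array (adjusted p up to 0.115), and under median normalization (-0.91, adjusted p = 0.613) or with no filter on dim probes (adjusted p = 0.0775). On slide 1 alone the anti-CD40 difference was -1.19, and in the blocked fit it was -1.22 (adjusted p = 0.000117). With Pam2CSK4 (4.43 and 4.21), anti-CD86 (4.66 and 4.37) and TLR2.CD86 (4.41 and 4.06), the mean differences were -0.31, -0.11 and -0.40, with adjusted p of 0.414, 0.741 and 0.182. In the blocked fit the decrease with TLR2.CD86 was called at -0.24 (adjusted p = 0.0226). The differences with Pam2CSK4 and anti-CD86 were -0.16 and 0.04 there, neither called.

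Plcg2, the phospholipase that makes the calcium and diacylglycerol signals, varied little. Its log2 signals were 6.46 and 6.49 in unstimulated cells, 6.25 and 5.95 with anti-CD40 and 6.21 and 6.19 with TLR2.CD40. These arrays lay below the unstimulated ones, at mean differences of -0.37 (adjusted p = 0.143) and -0.27 (adjusted p = 0.275), which did not pass the test. Under median normalization the first was -0.94 (adjusted p = 0.197), beside a median over all probes of -0.58. In the blocked fit they were -0.24 (adjusted p = 0.0123) and -0.27 (adjusted p = 0.00499), both called. The remaining arrays ranged from 6.14 to 6.50. Those of Pam2CSK4 and anti-CD86 were also below the unstimulated ones, by means of -0.19 in both, and neither was called in either fit. With the block these differences were -0.07 and -0.06. The other Plcg2 probe gave the same signs and the same calls in both CD40 conditions.

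Prkcb, the protein kinase C isoform that carries the receptor signal towards NF-kB, had log2 signals of 4.20 and 4.23 in unstimulated cells and 3.84 and 3.88 with TLR2.CD40. The other conditions spanned 3.78 to 4.19. The arrays of every stimulation lay below the unstimulated ones without overlap. The TLR2.CD40 difference of -0.35 was called with the block (adjusted p = 0.00225) and not without it (adjusted p = 0.150). Differences were -0.26 with Pam2CSK4, -0.11 with anti-CD86, -0.27 with TLR2.CD86 and -0.27 with anti-CD40, none called in either fit. With the block they were -0.14, 0.01, -0.14 and -0.15 in the same order, as Prkcb signals were lower on slide 2. The dimmer Prkcb probe had a difference of -0.02 with TLR2.CD40 (adjusted p = 0.969, block adjusted p = 0.885), so that the probes of Prkcb did not show the same change.

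Vav1, the exchange factor for Rac, had log2 signals of 3.29 and 3.23 in unstimulated cells. They were 3.60 and 3.34 with anti-CD86, 3.68 and 3.26 with TLR2.CD86 and 3.10 and 2.73 with anti-CD40. Without the block no Vav1 difference against unstimulated cells passed the test. In the blocked fit Vav1 was higher with anti-CD86 (0.37, adjusted p = 0.00850) and TLR2.CD86 (0.38, adjusted p = 0.00634), although these values were 0.07 and -0.08 under median normalization without the block. That scaling put the median over all probes at -0.19 and -0.32. The dimmer probe of Vav1 was also higher in the blocked fit in both conditions (0.53 and 0.45, adjusted p = 0.00676 and 0.00847). With Pam2CSK4 it was called higher there too (0.35, adjusted p = 0.0487), whereas the brighter one was not (0.21, adjusted p = 0.0843). With anti-CD40 the blocked values were 0.004 for the dimmer probe and -0.17 for the brighter one, neither called.

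**Figure D2:**
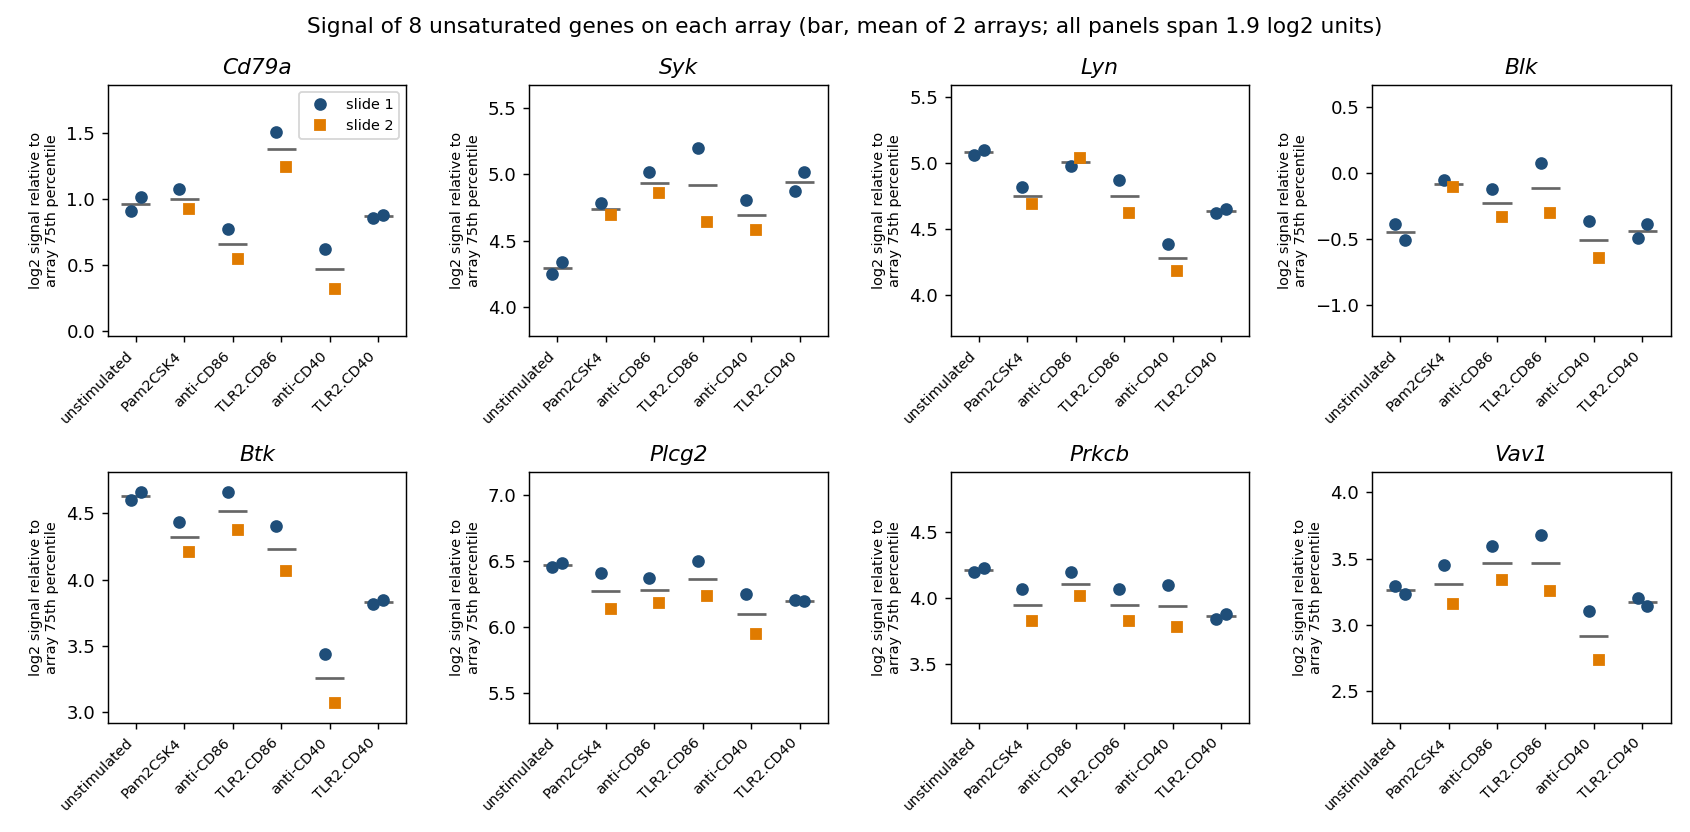
Log2 signal relative to the array's 75th percentile (vertical axes, each spanning 1.9 units around a different level) of the 8 unsaturated genes in the 6 conditions, with circles for slide 1, squares for slide 2 and a bar for the mean of 2 arrays. Btk and Lyn are lowest in anti-CD40, Syk is above both unstimulated arrays in all 5 stimulations, and squares lie mostly below circles.

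Across all 6 conditions, limma's F test called 3 of the 8 genes, against 20.1% of all probes tested. These were Btk (adjusted p = 0.00969), Lyn (0.0232) and Cd79a (0.0332). The count was 1 without any single unstimulated, anti-CD86 or TLR2.CD40 array or without replicate 2 of anti-CD40, 2 without a Pam2CSK4 array or replicate 1 of TLR2.CD86, and 4 without replicate 2 of TLR2.CD86. With the block all 8 were called, against 59.9% of all probes. The plain one way test of each probe also called 3 of 8 after adjustment, against 18.2% of all probes. In every gene but Lyn the signal was lower on slide 2, by 0.23 to 0.34 at an adjusted p under the threshold of 0.05, and for Lyn the slide term was -0.13 (adjusted p = 0.0845).

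By comparison, anti-CD40 against unstimulated cells gave 2 of 8 genes (Btk and Lyn, both lower), where 16.7% of all probes were called, and the block gave 5 of 8 against 37.1%. The count was 1 without either unstimulated array and 3 without replicate 1 of anti-CD40. TLR2.CD40 gave 3 of 8 (Btk and Lyn lower, Syk higher), where 18.2% of all probes were called, and the block gave 5 of 8 against 47.4%. For Pam2CSK4, anti-CD86 and TLR2.CD86 no gene of the 8 was called by limma, where 0.136%, 2.14% and 10.6% of all probes were. At an unadjusted p under 0.05, 2, 1 and 3 of the 8 genes passed in these 3 comparisons, against 15.7%, 23.2% and 30.4% of all probes. The blocked fit called 2, 3 and 5 genes there, against 10.8%, 28.3% and 34.9% of all probes. The median difference of the 8 genes was -0.08 for Pam2CSK4, -0.09 for anti-CD86, 0.05 for TLR2.CD86, -0.36 for anti-CD40 and -0.18 for TLR2.CD40, beside medians over all probes of -0.07, -0.05, -0.03, -0.01 and 0.01. With the block the medians of the 8 genes were 0.05, 0.03, 0.20, -0.21 and -0.18 in the same order. Those over all probes were then -0.04, -0.05, -0.007, 0.004 and 0.01. These 5 comparisons share the unstimulated arrays.

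**Figure D3:**
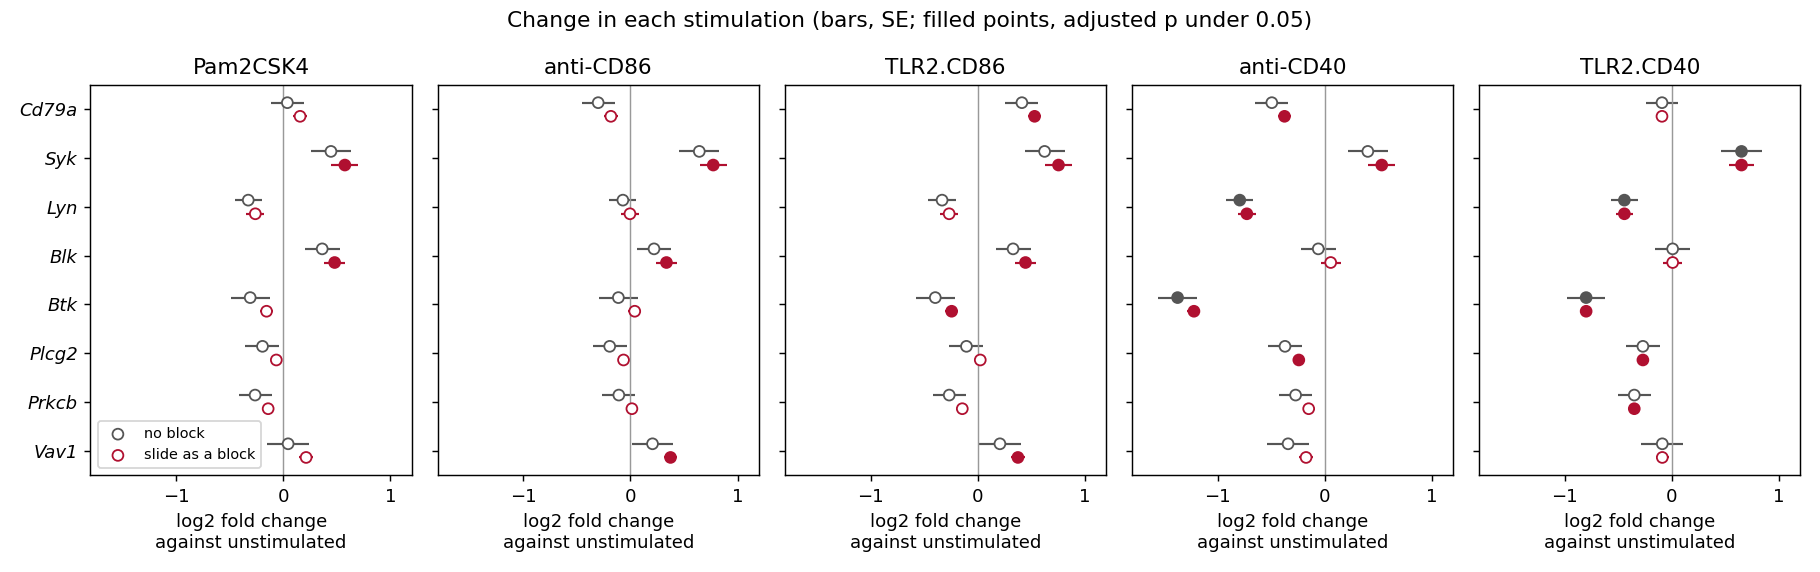
Log2 fold change against unstimulated cells (horizontal axes, with 0 at the line) of the 8 unsaturated genes in the 5 stimulations, without a block (grey) and with the slide as a block (red), where bars are SE and filled points have an adjusted p under 0.05. Btk stands at -1.37 and -1.22 with anti-CD40, and Syk is filled in all 5 panels with the block and in TLR2.CD40 alone without it.

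The values over marker lists moved beside these. With anti-CD40 and TLR2.CD40, where 16.7% and 18.2% of all probes were called, 3 and 1 of 9 unsaturated B cell markers were called lower, at medians of -0.29 and -0.19 beside -0.01 and 0.01 over all probes. Of the 9 unsaturated myeloid markers, 2 and 4 were called lower in these conditions (median -0.46 in both). Of the 7 NK cell markers, 3 and 1 were called lower, and of the 11 T cell markers none. With TLR2.CD86, where 10.6% of all probes were called, 4 of 9 myeloid markers (median -0.44), 3 of 7 NK cell markers (median -0.51) and 1 of 11 T cell markers (median -0.37) were called lower and no B cell marker was called. With anti-CD86 1 of 9 myeloid markers was called lower (median -0.51), where 2.14% of all probes were called, and with Pam2CSK4 no marker of these 4 lists was called. The plasma cell list had 1 of 4 unsaturated genes called higher in every stimulation but anti-CD86, and 1 called lower in both CD40 conditions. No red cell marker of 4 was called.

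The block changed these calls. With it, 5 myeloid, 3 NK cell and 3 T cell markers were lower with anti-CD40 and none higher, where 37.1% of all probes were called. With TLR2.CD40 6 myeloid, 3 NK cell and 4 T cell markers were lower, and 1 NK cell and 1 T cell marker were higher, where 47.4% of all probes were called. B cell markers were then lower for 5 genes with anti-CD40 and 4 with TLR2.CD40, and higher for 2 in each. With TLR2.CD86 4 myeloid, 4 NK cell and 5 T cell markers were lower and 1, 0 and 2 higher, and with anti-CD86 5, 3 and 3 were lower and none higher, where 34.9% and 28.3% of all probes were called. Of B cell markers, 4 were higher and 2 lower with TLR2.CD86, and 3 higher and 1 lower with anti-CD86. With Pam2CSK4, 2 B cell and 1 myeloid marker were higher and 1 and 2 lower, and no NK or T cell marker was called, where 10.8% of all probes were. Red cell markers were higher for 3 genes with TLR2.CD86 and 1 with TLR2.CD40, and lower for 1 with anti-CD86. Of the plasma cell list, 1 gene was higher in each of the 5 stimulations, 1 was lower with Pam2CSK4, and 2 were lower with TLR2.CD86, with anti-CD40 and with TLR2.CD40. Myeloid cells are known to express Lyn, Syk, Btk and Plcg2 too. The part of these cells in the values was not tested.

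The difference between CD40 and the other signals was tested in comparisons that were added after the data were seen. Against anti-CD86, Btk was lower with anti-CD40 by -1.26 (adjusted p = 0.00543, limma), at -1.22 on slide 1 and -1.30 on slide 2, and the call was lost under median normalization, where the difference was larger (-1.69, adjusted p = 0.0656). That scaling moved the median over all probes in this comparison to -0.39. Lyn was lower by -0.72 (adjusted p = 0.0121), at -0.59 on slide 1 and -0.86 on slide 2. These were 2 of 8 genes, where 10.0% of all probes were called, and the Lyn call was lost without either anti-CD86 array or without replicate 2 of anti-CD40 (adjusted p up to 0.0743), and under median normalization (-1.15, adjusted p = 0.292). The block gave 5 of 8 against 34.7%, adding Vav1 (-0.55, adjusted p = 0.00103), Cd79a (-0.19, adjusted p = 0.0482) and Plcg2 (-0.18, adjusted p = 0.0332), of which the last 2 were lost without replicate 2 of anti-CD40 (adjusted p = 0.212 and 0.144). Against Pam2CSK4, anti-CD40 gave a Btk difference of -1.07 (adjusted p = 0.0198), the only call among the 8 genes, where 4.45% of all probes were called. That call was lost without either unstimulated, either Pam2CSK4 or replicate 2 of the anti-CD40 arrays (adjusted p up to 0.0989), and under median normalization (-1.44, adjusted p = 0.294). Under that scaling the median over all probes was -0.36 in this comparison. With the block, 6 of 8 genes were called, all lower than with Pam2CSK4, against 28.0% of all probes. Between both combined signals, TLR2.CD40 and TLR2.CD86, no gene of the 8 was called by limma without the block, where 12.2% of all probes were, and 1 of 8 had an unadjusted p under 0.05, against 29.9% of all probes. The blocked fit called 6 of 8, all lower in TLR2.CD40, against 34.5% of all probes, with the largest at Cd79a (-0.62, adjusted p = 0.000776) and Btk (-0.56, adjusted p = 0.000952). Of these 6, Plcg2 and Prkcb turned to 0.01 and 0.09 under median normalization, where the median over all probes was 0.22.

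Adding Pam2CSK4 to an antibody was compared next. For TLR2.CD40 against anti-CD40 no gene of the 8 was called by limma, where 2.90% of all probes were, and 3 of 8 had an unadjusted p under 0.05, against 19.7% of all probes. Btk was higher with TLR2.CD40 by 0.57 (adjusted p = 0.156), with arrays that did not overlap. The blocked fit called Btk (0.42, adjusted p = 0.00784) and Cd79a (0.28, adjusted p = 0.0325), against 15.0% of all probes, and on slide 1, which held 1 anti-CD40 array, the differences were 0.39 and 0.25. Without replicate 2 of anti-CD40 the blocked Btk call held (adjusted p = 0.0273) and that of Cd79a did not (adjusted p = 0.0900). For TLR2.CD86 against anti-CD86 none was called without the block, where 0.225% of all probes were, and 1 of 8 had an unadjusted p under 0.05, against 8.81% of all probes. The block gave Cd79a higher and Btk lower (-0.28, adjusted p = 0.0389), against 7.55%.

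Adding the antibody to Pam2CSK4 was the reverse comparison. For TLR2.CD86 against Pam2CSK4 none of the 8 genes was called by limma, where 0.0633% of all probes were, and 1 of 8 had an unadjusted p under 0.05, against 10.3% of all probes. The block called Cd79a (0.38, adjusted p = 0.0184), against 10.7%. For TLR2.CD40 against Pam2CSK4 none was called without the block, where 9.91% were, and 1 of 8 had an unadjusted p under 0.05, against 26.8% of all probes. The blocked fit called 6 of 8, all lower, against 31.4%, and the largest was Btk (-0.65, adjusted p = 0.000681).

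The interaction, which is the combined effect minus the sum of both effects alone, was called for none of the 8 genes by limma. The share of all probes called was 0.0190% for CD86 and 1.15% for CD40, and 1 and 2 of the 8 genes had an unadjusted p under 0.05, against 4.29% and 19.3% of all probes. For CD40 the Btk interaction was 0.88 (adjusted p = 0.155) and that of Lyn 0.68 (adjusted p = 0.135). With the block they were 0.58 (adjusted p = 0.0182) and 0.54 (adjusted p = 0.0490), both called, against 8.41% of all probes. Without replicate 2 of anti-CD40 the blocked values were 0.56 (adjusted p = 0.0301) and 0.52 (adjusted p = 0.0757). The blocked fit called no interaction for CD86 among the 8 genes, against 0.234% of all probes.

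Among the 8 genes themselves, Btk and Lyn were most alike over the 12 arrays (Pearson r 0.96 after centring on slide means), followed by Btk and Plcg2 (0.85). Syk ran least with the rest, at r of -0.37 with Prkcb and 0.53 with Blk. The genes closest to the mean of the 8 were Irak3, Mast3, Mef2d, Abhd8 and Zfp668 (r 0.98 to 0.99). These arrays share slides, conditions and scaling, and the correlations are descriptions.

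Other genes of the pathway were taken from 6 lists, with 73 genes listed, 71 on the array and 69 tested. Of these, Pik3cd, a PI3K catalytic subunit that was not called in any of the 5 stimulations, was saturated on 6 of the 12 arrays, and the others on none. With anti-CD40, 16 of 69 were called (2 higher, 14 lower), or 23.2% beside 16.7% of all probes, and with TLR2.CD40 15 of 69 (4 higher, 11 lower), or 21.7% beside 18.2%. With TLR2.CD86 the count was 4 of 69 (1 higher, 3 lower), or 5.80% beside 10.6%, and with Pam2CSK4 and anti-CD86 it was 0. In the blocked fit the counts were 6, 23, 32, 41 and 45 of 69 for Pam2CSK4, anti-CD86, TLR2.CD86, anti-CD40 and TLR2.CD40, or 8.70%, 33.3%, 46.4%, 59.4% and 65.2%, beside 10.8%, 28.3%, 34.9%, 37.1% and 47.4% of all probes. In the same order, 3, 13, 15, 11 and 15 genes were higher there, and 3, 10, 17, 30 and 30 lower. The shares of all probes join both directions, so that a lean to lower calls has no such share beside it.

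Vav3, a relative of Vav1, was the 1 gene of 7 in the Rac arm called with TLR2.CD86 (-0.54, adjusted p = 0.0368), where 10.6% of all probes were called. Among the 10 adaptors and other proximal kinases tested, Lat2, a membrane adaptor, was the 1 gene called with TLR2.CD86 (-0.54, adjusted p = 0.0446). It was among 4 called with anti-CD40 (-0.61, 3 of 4 lower) and 3 with TLR2.CD40 (-0.66, 2 of 3 lower). In these conditions 16.7% and 18.2% of all probes were called. Of 12 Ras and MAPK genes, Rasgrp3, an exchange factor that diacylglycerol recruits, was lower with TLR2.CD40 (-0.96, adjusted p = 0.00133), and Braf, a kinase below Ras, was higher (0.45, adjusted p = 0.0252). With anti-CD40, 1 of these 12 was called (Rasgrp3, -0.89, adjusted p = 0.00342).

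In the calcium and NFAT arm, 4 of 12 genes were called with TLR2.CD40, where 18.2% of all probes were. Nfatc3, a calcium-driven factor, was higher (0.76, adjusted p = 0.00946). Ppp3r1, the calcineurin regulatory subunit, was lower (-0.74, adjusted p = 0.0339), and so was Itpr3, a calcium release channel (-0.53, adjusted p = 0.0341). The Ppp3r1 log2 signals were dim, at -1.96 to -1.95 in unstimulated cells and -2.76 to -2.63 with TLR2.CD40. With anti-CD40, 1 of 12 was called (Itpr3, -0.57, adjusted p = 0.0322), where 16.7% of all probes were. In the coreceptor and PI3K arm, Cd81, a tetraspanin of the B cell coreceptor, was higher with TLR2.CD40 (0.78, adjusted p = 0.00856) and Pik3cg, a PI3K catalytic subunit, was lower (-0.67, adjusted p = 0.0240), the only calls among 11. With anti-CD40, 3 of the 11 were called, 1 higher and 2 lower.

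Negative regulators, the longest list, had 6 of 17 genes called with anti-CD40, where 16.7% of all probes were called, and 4 of 17 with TLR2.CD40, where 18.2% were, all lower. In the blocked fit 9 were lower and 1 higher with anti-CD40, where 37.1% of all probes were called. With TLR2.CD40 9 were lower and 4 higher there, where 47.4% were called. Without the block, Pag1, an adaptor that anchors Csk, was higher with TLR2.CD86 (0.69, adjusted p = 0.0328). Its log2 signals were dim, at -3.01 to -2.74 in unstimulated cells and -2.29 to -2.09 with TLR2.CD86. The lowest signals well above background were -4.22 to -3.44 across the arrays. Ptpn22, a phosphatase that acts on Src family kinases, was lower with TLR2.CD86 (-0.58, adjusted p = 0.0224). Fcgr2b, the inhibitory Fc receptor, was chosen after its values were seen. It was lower with anti-CD40 (-1.42, adjusted p = 0.00641) and TLR2.CD40 (-1.35, adjusted p = 0.00445), beside Csk, the kinase that restrains Lyn and Blk (-0.77 and -0.87, adjusted p = 0.0133 and 0.00553), which was chosen likewise. Some transcripts that restrain the receptor and some that carry its signal were among those lower in the CD40 conditions. Fcgr2b and Csk, chosen after their values were seen, add nothing to the counts of their list, which was not tested as a set. Of the differences in these 3 paragraphs, none changed sign under median normalization. Whether their calls held there or without single arrays was not examined. The calls of Btk, Lyn and Syk with TLR2.CD40 were lost under that scaling.

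**Figure D4:**
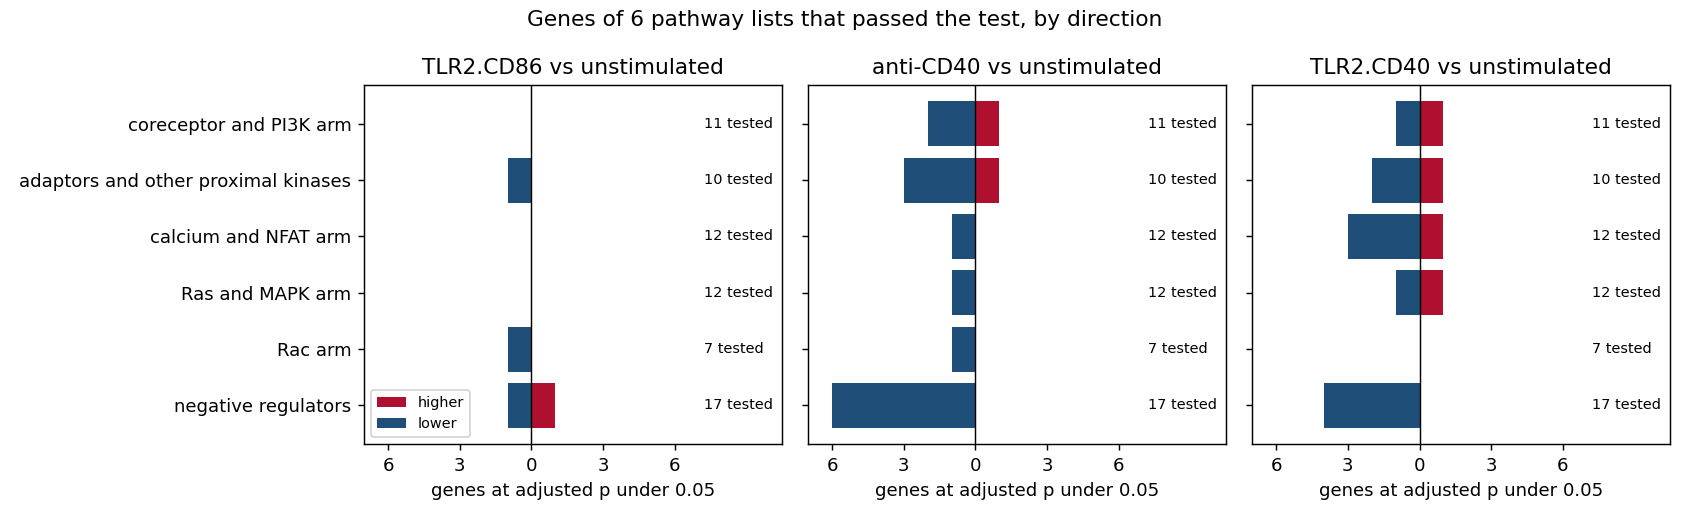
Number of genes at adjusted p under 0.05 without the block (horizontal axes, higher to the right in red and lower to the left in blue) in 6 pathway lists for TLR2.CD86, anti-CD40 and TLR2.CD40 against unstimulated cells, with the number tested at the right of each row. Calls are mostly lower in both CD40 panels, at 14 of 16 and 11 of 15, and the longest bar is the 6 negative regulators lower with anti-CD40. The calls over all probes were not split by direction, so that this lean cannot be read as particular to the lists.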

How the data were processed

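RNA was labelled with Cy3 and hybridised to a custom mouse Agilent array annotated to mm9, and images were read with Feature Extraction. The authors deposited scanner files with a processed signal intensity per spot, already corrected for background, and a table of log2 values of the same arrays, shifted by a constant for each. Here log2 intensity minus the array's 75th percentile was used. Control and outlier spots were left out, saturated spots were kept, and the brightest probe stood for a gene. A filter kept the 31664 probes that were well above background in both replicates of at least 1 condition, and 68 with missing values were dropped. Tests used limma 3.58.1 in R 4.3.3 over all 12 arrays with Benjamini-Hochberg adjustment over 31596 probes and a threshold of 0.05. They were tested on simulated data. Figures used matplotlib 3.10.9. Alternatives are given in the closing section. Arrays have no read depth, and their number limits the precision. The methods give male or female mice, and the isotype control was not analysed here. Named pathway genes were up to 3 per list with the largest change among those called for TLR2.CD86, or else for TLR2.CD40. The genes, lists and rules were chosen with earlier results of these data known. Another arm of the pathway is not reported here.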

Additional observations from a re-analysis of the deposited data

How the results depend on the processing

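Alternatives were compared by the number of the 8 unsaturated genes called, beside 0 for Pam2CSK4, anti-CD86 and TLR2.CD86, 2 for anti-CD40 and 3 for TLR2.CD40, each against unstimulated cells, and 3 by the F test. With the slide as a block the counts were 2, 3, 5, 5 and 5, and 8 by the F test. They were 1 for TLR2.CD86 against Pam2CSK4, 2 against anti-CD86, 6 for TLR2.CD40 against Pam2CSK4, 2 against anti-CD40 and 6 against TLR2.CD86. They were 2 for the CD40 interaction, 5 for anti-CD40 against anti-CD86 and 6 for anti-CD40 against Pam2CSK4. When replicate 2 of anti-CD40 was left out too, a choice made after seeing the data, they were 1, 2, 5, 4, 5 and 8, then 1, 2, 6, 1 and 6, and 1 for the CD40 interaction and 4 for anti-CD40 against Pam2CSK4. On slide 1 alone the counts were 4 for TLR2.CD86 and 5 for TLR2.CD40 against unstimulated cells, 1 for TLR2.CD40 against Pam2CSK4, 4 against TLR2.CD86 and 0 for anti-CD40 against Pam2CSK4. That slide held 1 array each of Pam2CSK4, anti-CD86, TLR2.CD86 and anti-CD40, which were assumed to vary like the unstimulated and TLR2.CD40 arrays. Median normalization gave 1 for anti-CD40, 0 for TLR2.CD40, 0 by the F test and 0 for anti-CD40 against anti-CD86 and against Pam2CSK4. Quantile normalization gave 1 for anti-CD86, 2 for TLR2.CD86, 4 for anti-CD40, 1 for TLR2.CD40 against Pam2CSK4, 2 against TLR2.CD86 and 3 for anti-CD40 against Pam2CSK4. The normexp correction gave 1, 1 and 4 for anti-CD86, TLR2.CD86 and anti-CD40, 1 for TLR2.CD40 against Pam2CSK4, and 4 and 2 for anti-CD40 against anti-CD86 and Pam2CSK4. With no filter on dim probes the counts were 1 for anti-CD40, 0 for TLR2.CD40, 0 by the F test, 1 for anti-CD40 against anti-CD86 and 0 against Pam2CSK4. The mean over the probes of a gene gave 1 for TLR2.CD40 and 1 for anti-CD40 against anti-CD86. The cause of these shifts was not tested. Of the fits compared here, the share of all probes called was counted only without a block and with the slide as a block. The other counts, here and in the next paragraph, have no such share beside them and cannot be read against it.

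Leaving out each array in turn gave 1 to 3 genes for anti-CD40, 0 to 3 for TLR2.CD40, 1 to 2 for anti-CD40 against anti-CD86, 0 to 1 against Pam2CSK4 and 1 to 4 by the F test, and 0 elsewhere. With the replicate number as a block the counts were 1 for TLR2.CD86 and 4 for anti-CD40 against unstimulated cells, 1 for TLR2.CD40 against TLR2.CD86 and 3 for anti-CD40 against Pam2CSK4. Differences between replicates correlated at 0.54 to 0.67 over the 6 pairs among the 4 conditions that lay on both slides, where the replicate number is the slide number, and at -0.11 to 0.07 over the other 9 pairs of conditions. The number thus went with the slide in 4 conditions and did not pair the arrays of all 6.

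Of 1100 values of single genes under an alternative, 928 kept their direction and side of the threshold, 115 newly passed it, 47 no longer did and 10 changed sign. Under median normalization the sign changed for Syk with anti-CD40 (-0.17), Vav1 with TLR2.CD86 (-0.0816), Plcg2 for TLR2.CD40 against Pam2CSK4 (0.0065) and TLR2.CD86 (0.0127) and Prkcb for TLR2.CD40 against TLR2.CD86 (0.0931). That scaling moved the median over all probes too. It was then -0.58 with anti-CD40 and -0.32 with TLR2.CD86 against unstimulated cells. For TLR2.CD40 it was 0.12 against Pam2CSK4 and 0.22 against TLR2.CD86. Without 1 array the ranges crossed 0 for TLR2.CD40 against Pam2CSK4 in Plcg2 (-0.21 to 0.0585), Prkcb (-0.21 to 0.0328) and Vav1 (-0.28 to 0.0113), for Prkcb against TLR2.CD86 (-0.20 to 0.0314), and for Vav1 with TLR2.CD86 against unstimulated cells (-0.0034 to 0.42). Btk kept its call for anti-CD40 under all alternatives run (adjusted p = 0.000117 to 0.0466). Lyn lost its call for anti-CD40 under median normalization (-1.36, adjusted p = 0.121) and with no filter (-0.79, adjusted p = 0.0512). With 2 arrays in each condition the precision was limited by their number, and saturation left Cd79b and Blnk without a usable difference.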
